A study of Homo sapiens with 6 samples.

Results

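The genes described are 10 classical targets of NF-kB that encode chemokines, inflammatory mediators and inhibitors of the pathway itself: CXCL8, CXCL1, CXCL2, CXCL3, CCL2, IL1A, IL1B, PTGS2, NFKBIA and TNFAIP3. They were chosen by gene symbol, with earlier results of these data known. Of the 10 genes, 8 had a row among the 23026 genes of the deposited normalized table. CXCL1 and CXCL2 had none, and their reads were taken by gene identifier from the count tables, which list 58174 genes. Of all 10, 9 had at least 1 read in at least 1 library. A test was run on 6. CCL2, PTGS2 and NFKBIA were tested in a fit of the 9697 genes above 10 CPM, and CXCL8, CXCL3 and TNFAIP3 in a fit of the 15582 genes above 0.5 CPM. For these filters, and for means set beside them, CPM is normalized: the mean spike-in normalized count over the 6 libraries, per 1000000 of the mean reads assigned to genes. Values of single libraries and of markers are plain CPM, the reads per 1000000 reads assigned to genes in a library. IL1A, IL1B, CXCL1 and CXCL2 lay below 0.5 CPM and are given as counts.

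NF-kB is a family of dimeric transcription factors, with RelA (p65) and p50 the best known pair, that is held inactive in the cytoplasm by the inhibitor IkBalpha, the product of NFKBIA. Signals from interleukin 1, TNF and Toll-like receptors activate the IKK kinases, IkBalpha is phosphorylated and degraded, and the freed dimers bind kappaB sites and switch on chemokines, cytokines and the genes of their own inhibitors. In glioblastoma the pathway is known for driving chemokines that attract neutrophils and macrophages.

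The libraries are bulk messenger RNA from T98G, a human glioblastoma cell line, infected with a lentivirus that expresses a short hairpin RNA against the protein kinase DYRK1A (shDYRK1A, 3 libraries) or a control hairpin (shControl, 3 libraries). Cells of both groups went through the same infection, puromycin selection and recovery without the drug, and no inflammatory stimulus was named in the labels. All came from 1 line, and the labels do not say whether libraries 1A, 1B and 1C of a group were separate cultures, so that p-values measure the spread between libraries, which may be technical. In every library equal numbers of T98G cells had been mixed with a fixed number of Drosophila Kc167 cells, and a normalized count is a raw count divided by the size factor that this spike-in gave. Values per library follow the order 1A, 1B, 1C throughout.

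Reads assigned to genes numbered 33708297 to 42154438 per library. DYRK1A itself was lower in the shDYRK1A libraries, at a mean of 1274 ± 213 against 2119 ± 194 normalized counts (SD, n = 3 each) with no overlap, a fall of 0.73 on the log2 scale (adjusted p 5.33e-06, edgeR). In normalized counts 63.6% of all genes above 10 CPM also had every shDYRK1A library below every shControl library. Most genes were lower in shDYRK1A on the spike-in scale, with a median log2 fold change of -0.40 for all genes above 10 CPM and of -0.38 for those above 0.5 CPM. Scaling over the human genes alone (TMM) moved both medians to 0.00 and the log2 fold change of DYRK1A to -0.34 (adjusted p 0.000591, edgeR). Fewer human cells per fly cell and less RNA per human cell cannot be told apart on the spike-in scale. Each tested member is therefore also given relative to the median or under TMM scaling. The summed level of T98G and glioma markers was 4990 to 5070 CPM in shControl and 4610 to 4820 CPM in shDYRK1A, although the glial markers SOX2 and GFAP were nearly absent, with 3 and 9 reads over all 6 libraries. Myeloid markers summed to 6.1 to 7.52 CPM in shControl and 6.06 to 6.94 CPM in shDYRK1A. Of 8 such genes ITGAM, at a mean of 4.42 CPM, CSF1R, at 1.15 CPM, and CD14, at 0.892 CPM, were the highest. These had 1042, 277 and 208 reads over all 6 libraries, and PTPRC, CD68 and LYZ had 22, 15 and 10. AIF1 and TYROBP, which define macrophages and microglia, were at 0 in every library. Endothelial markers summed to 20.1 to 22.3 CPM and 22.1 to 29.8 CPM, most of it from EGFL7, at a mean of 20.7 CPM. TEK had a mean of 1.94 CPM, and PECAM1, VWF and CDH5 had 0.39, 0.362 and 0.0148 CPM. The lymphocyte markers CD3E, CD3D and MS4A1 were at 0 in all 6 libraries. The part of the myeloid and endothelial markers in the results was not tested.

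Promoters are shown first, because the members share a regulator and the letters it is known to bind can be read in them. RefSeq promoter windows on GRCh38.p14, from 250 bases before to 50 bases after a transcription start, were found for 9 of the 10 genes. CCL2 is named only. Both strands were searched for the kappaB word GGANTTTCC of 9 bases, where N is any base, and for the looser kappaB consensus of 10 bases, and a stretch that matches both counts under both. The word was present in 1.64% of 35116 RefSeq promoters and in those of 6 of the 9 genes. The consensus was present in 11.3% of all promoters and in 5 of the 9. The short stretches around the matches to the word are printed 5′ to 3′ on the strand of the gene, to show how alike they are, with the matched 9 bases in capitals. In TNFAIP3 and in the second site printed for NFKBIA the word itself reads on the opposite strand.
CXCL8 (chr4:73740472-73740492, plus strand): aatcgtGGAATTTCCtctgac
CXCL1 (chr4:73869309-73869329, plus strand): actccgGGAATTTCCctggcc
CXCL2 (chr4:74099258-74099278, minus strand): gctccgGGAATTTCCctggcc
CXCL3 (chr4:74038753-74038773, minus strand): gctccgGGAATTTCCctggcc
TNFAIP3 (chr6:137867186-137867206, plus strand): gactttGGAAAGTCCcgtgga
NFKBIA (chr14:35404977-35404997, minus strand): tcggaaGGACTTTCCagccac
NFKBIA (chr14:35404816-35404836, minus strand): tggcttGGAAATTCCccgagc
The first capital lay 91 bases before the start in CXCL8, 78 in CXCL1 and CXCL3, 77 in CXCL2 and 67 in TNFAIP3, and NFKBIA held a pair of sites at 242 and 81 bases before its start. The 9 matched bases were the same in all 4 CXCL genes. Over the 21 bases printed, CXCL2 and CXCL3 were identical, CXCL1 shared 20 with each of them, and CXCL8 shared 13 with CXCL2 and CXCL3 and 14 with CXCL1. CXCL1, CXCL2 and CXCL3, known products of gene duplication, thus had the same kappaB letters in nearly the same place.

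The 250 bases before the start are printed for 3 genes with different results. NFKBIA rose and has 2 matches to the kappaB word, and the call of CXCL8 depended on the scaling. PTGS2 had the highest log2 fold change of the tested genes, and its window matched neither of the kappaB forms searched. Capitals mark bases of a match to either kappaB form.
NFKBIA (chr14:35404750-35404999, minus strand): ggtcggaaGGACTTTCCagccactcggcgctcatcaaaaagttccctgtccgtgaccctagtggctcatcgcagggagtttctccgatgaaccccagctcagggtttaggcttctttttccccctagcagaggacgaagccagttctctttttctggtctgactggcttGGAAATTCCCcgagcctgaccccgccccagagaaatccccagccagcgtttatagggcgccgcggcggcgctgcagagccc
CXCL8 (chr4:73740319-73740568, plus strand): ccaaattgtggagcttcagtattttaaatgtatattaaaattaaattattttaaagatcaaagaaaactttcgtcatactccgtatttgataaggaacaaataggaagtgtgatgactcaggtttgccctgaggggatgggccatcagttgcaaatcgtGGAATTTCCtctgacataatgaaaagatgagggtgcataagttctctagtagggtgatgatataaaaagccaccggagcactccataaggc
PTGS2 (chr1:186680424-186680673, minus strand): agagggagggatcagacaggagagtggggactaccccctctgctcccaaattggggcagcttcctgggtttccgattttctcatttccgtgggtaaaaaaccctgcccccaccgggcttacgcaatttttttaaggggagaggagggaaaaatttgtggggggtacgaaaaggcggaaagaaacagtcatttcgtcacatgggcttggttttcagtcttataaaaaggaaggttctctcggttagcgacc
The windows of IL1A, IL1B and PTGS2 held neither kappaB form, which says only that these letters are not in these windows. Other sequences that NF-kB may bind were not searched for, so these windows cannot be said to lack a kappaB site. The word TGANTCA, bound by AP-1 factors, was in the windows of CXCL8 and IL1A and in 7.71% of all promoters. A TATAAA word was in those of CXCL8, NFKBIA and PTGS2 and in 1 of the 2 windows of IL1A, against 11.5% of all promoters. The palindrome of 10 bases that is associated with DYRK1A at promoters was in 0 of the 9 genes and in 0.424% of all promoters.

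**Figure D1:**
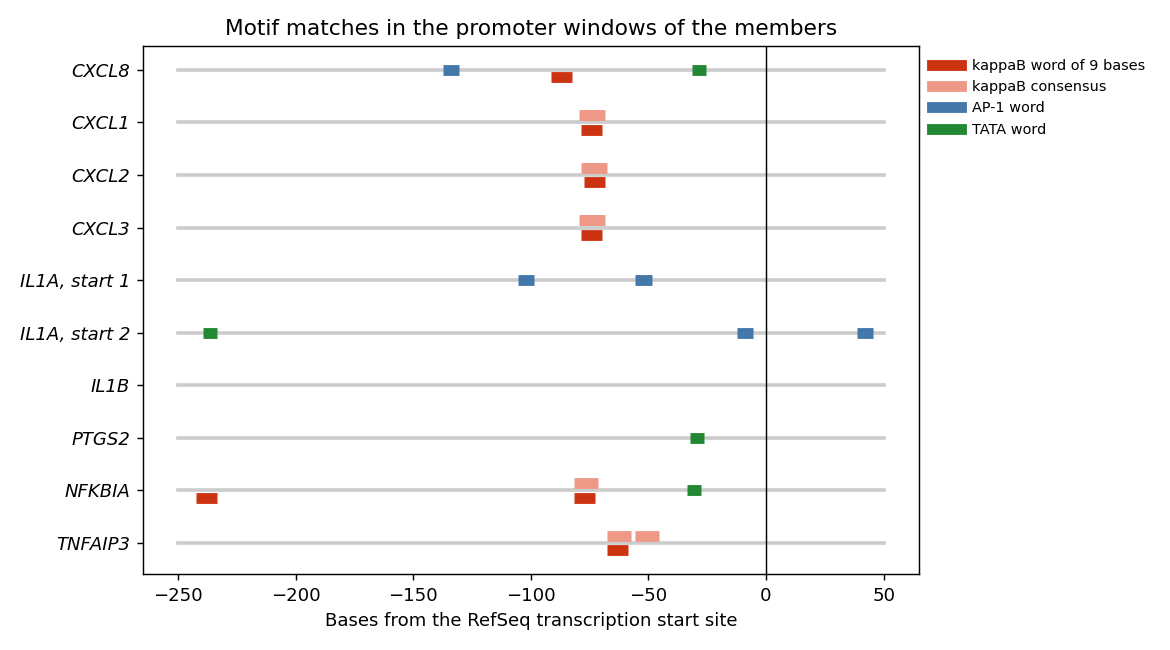
Positions of motif matches in the RefSeq promoter windows of 9 genes, in bases from the transcription start (x axis), with 1 line per window and 2 windows for IL1A. Dark red bars mark the kappaB word, pale red bars the kappaB consensus, blue bars the AP-1 word and green bars the TATA word. The kappaB matches of the 4 CXCL genes, NFKBIA and TNFAIP3 lie between 46 and 91 bases before the start, except the farther site of NFKBIA at 242.

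CCL2 had the highest level of the chemokines, CXCL8 and CXCL3 were lower and at similar levels in shControl, and CXCL1 and CXCL2 were absent or nearly so. CCL2, which attracts monocytes and macrophages (chr17:34255218-34257203, plus strand, 3 exons), had 1057, 918 and 813 normalized counts in shControl and 1553, 1345 and 1291 in shDYRK1A. Every shDYRK1A library was above every shControl library, by a group mean of 1396 ± 138 against 929 ± 122 (SD, n = 3 each). CCL2 rose 1.5-fold, a log2 fold change of 0.59 (SE, the standard error, 0.15) at an adjusted p of 0.000422 by the quasi-likelihood test of edgeR with Benjamini-Hochberg adjustment, and stood 0.99 above the median of all genes. In CPM of the human reads, with no use of the spike-in, it had 22.0, 19.2 and 20.3 in shControl and 42.4, 43.1 and 38.7 in shDYRK1A.

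CXCL8 encodes interleukin 8, the main attractant of neutrophils (chr4:73740506-73743716, plus strand, 4 exons). It had 99.8, 78.3 and 123 normalized counts in shControl and 149, 117 and 131 in shDYRK1A. The groups overlapped, since shControl 1C stood above shDYRK1A 1B, and the means were 100.3 ± 22.2 and 132 ± 16.3 (SD, n = 3 each). Its log2 fold change of 0.39 did not pass the test (standard error 0.22, adjusted p 0.124), and the 95% interval ran from -0.04 to 0.83. In CPM of the human reads CXCL8 had 2.08, 1.64 and 3.06 in shControl and 4.07, 3.74 and 3.93 in shDYRK1A, with no overlap. Under TMM scaling it was higher by 0.75 (adjusted p 0.00454, edgeR). Library shControl 1C decided the call on the spike-in scale: without it the log2 fold change was 0.57 and the adjusted p 0.0342.

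CXCL3, a further neutrophil attractant (chr4:74036589-74038807, minus strand, 4 exons), was the member with a lower mean in shDYRK1A. It had 90.1, 72.6 and 72.0 normalized counts in shControl and 56.7, 45.4 and 55.2 in shDYRK1A. Each shDYRK1A library was below each shControl library, as in 52.3% of all genes above 0.5 CPM, and the means were 78.3 ± 10.3 and 52.4 ± 6.14 (SD, n = 3 each). The log2 fold change of -0.57 (standard error 0.26) had an adjusted p of 0.0585 and lay -0.20 from the median of all genes. In CPM of the human reads the groups overlapped, with 1.87, 1.52 and 1.80 in shControl and 1.55, 1.45 and 1.66 in shDYRK1A, and under TMM scaling the value was -0.20 (adjusted p 0.415). Without shControl 1C the spike-in value was -0.63 with an adjusted p of 0.0476.

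CXCL1 and CXCL2, the closest relatives of CXCL3, lie in the same gene cluster on chromosome 4 (chr4:73869393-73871242, plus strand, and chr4:74097035-74099293, minus strand). CXCL1 had 0 reads in all 6 libraries, and CXCL2 had 2 reads, both in shDYRK1A 1A. A count of 0 allows up to 3 reads, which is 0.0712 to 0.089 CPM in these libraries and covers counting error only. Both groups were at or under this limit for both genes, and no fold change is given. The relatives can be told apart by their reads: every 100-base window of the principal transcripts of CXCL1, CXCL2, CXCL3 and CXCL8 occurred in no other annotated gene. Thus CXCL3 was measured at a mean of 1.66 normalized CPM while CXCL1 was not detected and CXCL2 stood at 0.00802 normalized CPM, with the kappaB site the same in all 3 promoters.

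**Figure D2:**
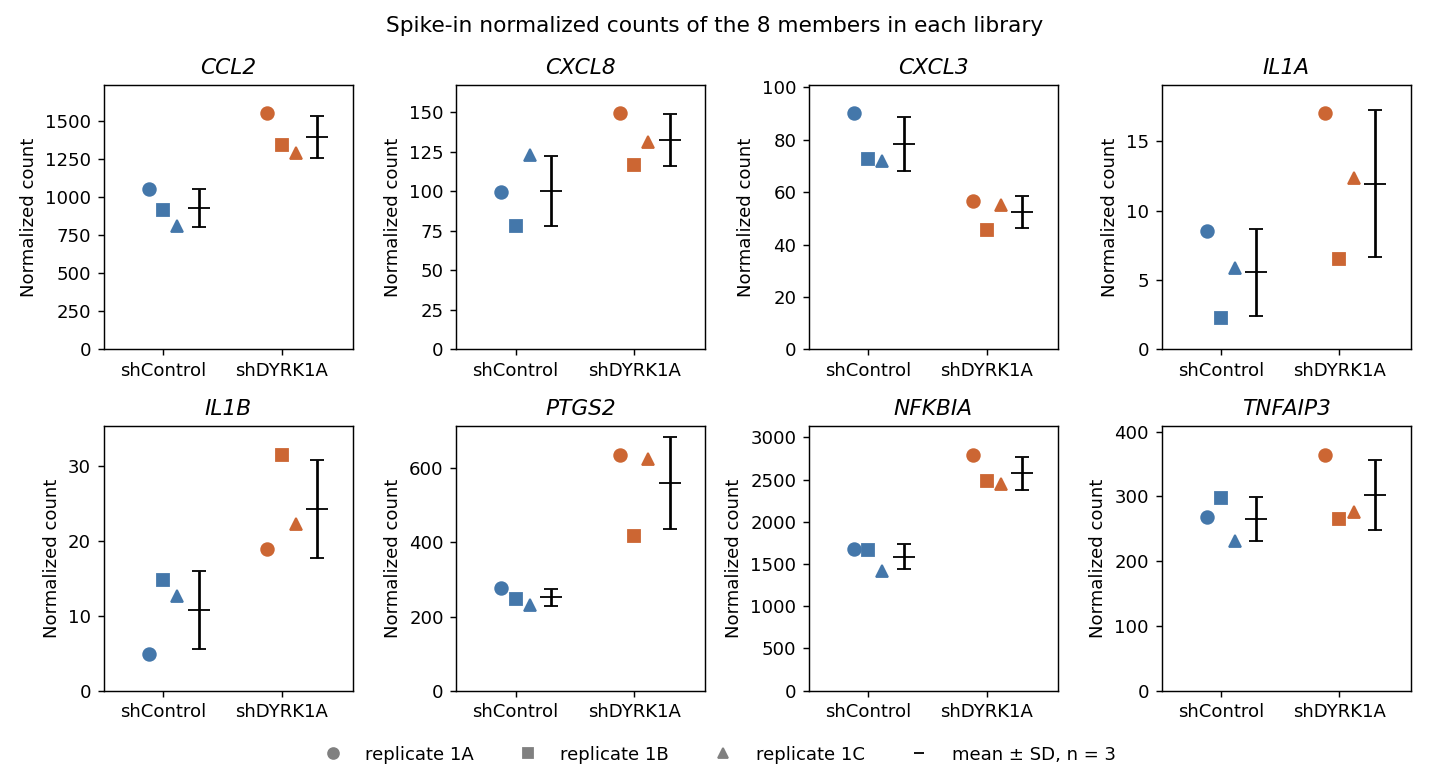
Spike-in normalized counts (y axis, from 0) of the 8 genes with a row in the normalized table, in each shControl and shDYRK1A library. Symbols mark replicates 1A, 1B and 1C and black bars the mean ± SD of 3 libraries. All shDYRK1A points lie above all shControl points for CCL2, IL1B, PTGS2 and NFKBIA and below them for CXCL3, while CXCL8, IL1A and TNFAIP3 overlap. Of all genes above 0.5 CPM, a set without IL1A and IL1B, 3.15% lie above and 52.3% below in this way.

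Both interleukin 1 genes were close to the limit of detection and had more reads in shDYRK1A. IL1A, an alarmin released by damaged cells (chr2:112773915-112784590, minus strand, 7 exons), had 7, 2 and 6 raw reads in shControl and 18, 7 and 15 in shDYRK1A. As normalized counts these were 8.52, 2.27 and 5.84 against 17.0, 6.49 and 12.4, so that shDYRK1A 1B fell within the shControl range. IL1B, which is secreted after cleavage by caspase 1 (chr2:112829751-112836903, minus strand, 7 exons), had 4, 13 and 13 raw reads in shControl and 20, 34 and 27 in shDYRK1A.

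IL1B had 4.87, 14.8 and 12.7 normalized counts in shControl and 18.9, 31.5 and 22.2 in shDYRK1A, and the groups did not overlap. In this direction 3.15% of all genes above 0.5 CPM did not overlap either, a set that leaves IL1B out. The share among genes at the level of IL1B was not computed. The log2 ratio of the mean normalized counts was 1.17 for IL1B and 1.11 for IL1A, with no test at this depth in the main analysis. Leaving out 1 library at a time moved these ratios to between 0.82 and 1.47 for IL1B and between 0.73 and 1.56 for IL1A. When all 32001 genes with a read were fitted, IL1B had an adjusted p of 0.0377 and IL1A one of 0.196 (edgeR). With edgeR's own filter, which keeps 17530 genes, IL1B had an adjusted p of 0.0211, but that filter asks for reads in as many libraries as the smaller group holds and can be met through shDYRK1A alone. IL1A did not pass that filter.

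PTGS2 had the highest log2 fold change of the 6 tested genes. It encodes cyclooxygenase 2, the inducible enzyme that makes the precursor of prostaglandins (chr1:186671791-186680427, minus strand, 10 exons). It had 276, 247 and 231 normalized counts in the shControl libraries and 637, 417 and 624 in the shDYRK1A libraries. The lowest shDYRK1A library, 1B, was still above the highest shControl library, and the means were 251 ± 23.1 and 559 ± 124 (SD, n = 3 each). This was a 2.23-fold rise, or 1.16 on the log2 scale (SE 0.17, adjusted p 4.86e-10, edgeR), and lay 1.56 above the median of all genes. Relative to the human reads alone, PTGS2 had 5.75, 5.17 and 5.75 CPM in shControl and 17.4, 13.3 and 18.7 CPM in shDYRK1A. Over all 6 libraries its mean of normalized CPM was 10.3, so that it passed the 10 CPM filter only through the shDYRK1A libraries. In the wider fit of 15582 genes, which it would have entered at its shControl level as well, the log2 fold change was 1.16 (adjusted p 7.79e-10, edgeR).

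Of the inhibitors that NF-kB induces as negative feedback, NFKBIA rose and TNFAIP3 did not pass the test with the spike-in. NFKBIA (chr14:35401511-35404749, minus strand, 6 exons) had 1679, 1661 and 1417 normalized counts in shControl and 2798, 2483 and 2443 in shDYRK1A. All shDYRK1A libraries were above all shControl libraries, with means of 2575 ± 194 and 1586 ± 147 (SD, n = 3 each). NFKBIA thus rose by 0.70 on the log2 scale (SE 0.14, adjusted p 9.11e-06, edgeR), or 1.10 above the median of all genes. Before rounding it was just under the fold threshold of 0.7 that the study set for a call. As CPM of the human reads the libraries of a group were close together, at 34.9, 34.7 and 35.3 in shControl and 76.3, 79.5 and 73.3 in shDYRK1A.

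TNFAIP3 encodes A20, an enzyme that edits ubiquitin chains and shuts off signals upstream of the IKK kinases (chr6:137867188-137883312, plus strand, 9 exons). It had 268, 297 and 231 normalized counts in shControl and 365, 266 and 277 in shDYRK1A. The groups overlapped, with only shDYRK1A 1A above the shControl range, and the log2 fold change of 0.19 did not pass the test (standard error 0.18, adjusted p 0.38, 95% interval -0.17 to 0.55). In CPM of the human reads it had 5.57, 6.22 and 5.75 in shControl and 9.95, 8.51 and 8.31 in shDYRK1A, without overlap, and under TMM scaling the log2 fold change was 0.56 (adjusted p 0.000436, edgeR). Omission of 1 library at a time gave spike-in values from 0.03, without shDYRK1A 1A, to 0.28. The difference between the responses of NFKBIA and TNFAIP3 was not tested.

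Because PTGS2 crossed the 10 CPM filter through its rise, the 6 tested genes were also counted together in the wider fit, a choice made after seeing the data. There 3 of the 6, CCL2, PTGS2 and NFKBIA, were higher at an adjusted p below 0.05 by edgeR, where 1.85% of all genes were higher and 49.3% lower. None was lower, a count of 0 that DESeq2 gave as well, and 1 gene, CXCL3, was lower at an unadjusted p below 0.05. PTGS2 was past the fold threshold, as 1.07% of all genes were. Normalized counts of the 3 higher genes did not overlap between the groups, with shDYRK1A above, as in 3.15% of all genes. Under TMM scaling 5 of the 6 genes were higher and 0 lower at an adjusted p below 0.05, with CXCL3 the exception, against 21.3% of all genes higher and 22.9% lower. In CPM of the human reads the shDYRK1A libraries were all above the shControl libraries for these 5 genes, as for 30.7% of all genes. In order of log2 fold change, 48 of the 15582 genes were above PTGS2, 182 above NFKBIA, 248 above CCL2, 482 above CXCL8, 1017 above TNFAIP3 and 11508 above CXCL3.

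**Figure D3:**
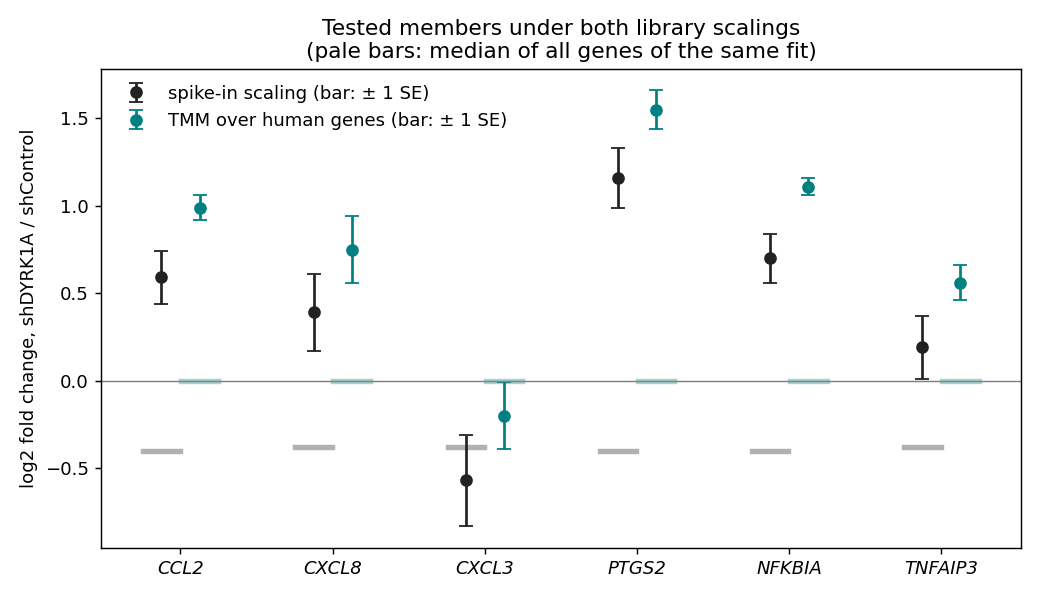
Log2 fold changes of the 6 tested genes (y axis, shDYRK1A over shControl) with spike-in scaling (black) and TMM scaling over the human genes (green). Error bars are ± 1 standard error and pale bars the median of all genes of the same fit, at -0.40 or -0.38 with the spike-in and 0.00 with TMM. CCL2, PTGS2 and NFKBIA are above 0 under both scalings, and the distance of each gene from its median is nearly the same under both.

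**Figure D4:**
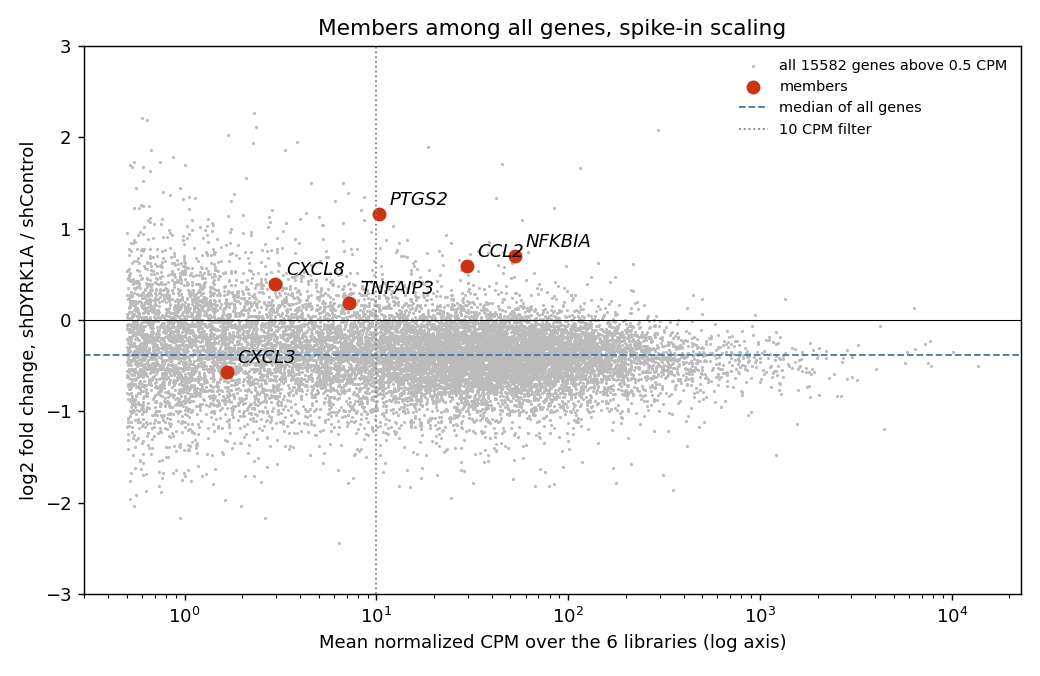
Mean level over the 6 libraries (x axis, normalized CPM, log axis) and log2 fold change (y axis, spike-in scaling) of the 15582 genes above 0.5 CPM, with the 6 tested members in red. The dashed line is the median of all genes, -0.38, and the dotted line the 10 CPM filter. PTGS2, CCL2 and NFKBIA lie at the upper edge of the genes of their level, and CXCL3 lies below the median.

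Per kilobase of exon, the levels in shControl ran from NFKBIA, at 668 ± 61.8 normalized counts per kb, and CCL2, at 468 ± 61.6, to IL1A, at 2.61 ± 1.48 (SD, n = 3 each). Exon length was the union over all annotated transcripts. For CCL2 (1986 bases) and CXCL3 (2219 bases) this union covers the whole gene span, introns included, so their levels per kb are understated. TNFAIP3 (52.5 ± 6.6), PTGS2 (47.7 ± 4.38), CXCL8 (44.1 ± 9.76) and CXCL3 (35.3 ± 4.62) formed a middle group whose neighbours in this order did not differ beyond their spread. The principal transcripts of CXCL3 and CXCL8 are 1075 and 1705 bases long, so the order within this group depends on the exon length used. IL1B, at 3.48 ± 1.68, and IL1A did not differ beyond their spread either. In shDYRK1A PTGS2 stood at 106 ± 23.5 per kb and TNFAIP3 at 59.9 ± 10.7, so PTGS2 was the higher of the pair there.

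Many transcripts of this group are known to be short-lived because AU-rich elements in their 3′ UTRs recruit decay factors. The element ATTTA occurred at a median of 7.13 per kb of 3′ UTR in the 10 genes and 1.66 per kb over 12230 genes. CXCL2 had the highest density, 13.9 per kb, and TNFAIP3 (2.51) and CCL2 (2.66) the lowest. The longer form TATTTAT was in the 3′ UTRs of 9 of the 10 genes, CCL2 being without it, and in those of 33.6% of all genes. Of the 3 genes that rose, PTGS2 had 8.59 per kb, NFKBIA 5.98 and CCL2 2.66, and CXCL3, with its negative log2 fold change, had 10.4.

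The genes most like NFKBIA over the 6 libraries, by the root mean square difference of centred log2 levels, were SLPI (0.0402), TAPBPL (0.0423) and CASP1 (0.0605). SLPI encodes a secreted protease inhibitor, TAPBPL a tapasin-related protein of antigen presentation and CASP1 the protease that cleaves pro-interleukin 1beta. CXCL8 had no neighbour as close, the nearest being TRAPPC9 (0.172), A2M (0.173) and IRAK2 (0.176). Both were compared only with genes above 10 CPM. CXCL8 had 69 to 159 reads a library and NFKBIA 1379 to 2966, and the part of counting error in these distances was not tested.

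Other genes of the pathway were taken from lists of 150 genes, of which 89 were above 10 CPM. Among these 37 were lower and 7 higher at an adjusted p below 0.05, where 63.4% and 1.08% of all genes were, and their median log2 fold change was -0.24 against -0.40 over all genes. Under TMM scaling 18 were lower and 43 higher, where 28.6% and 27.3% of all genes were. These shares of all genes apply to each list of genes above 10 CPM that follows, under the same scaling. The count of lower genes depended on single libraries: it was 22 without shControl 1A or without shControl 1B, 23 without shDYRK1A 1C and 56 without shControl 1C. The median of all genes above 10 CPM moved too, to -0.36 without shControl 1A or 1B and to -0.48 without shControl 1C. Shares of all genes called were not computed for the omissions, here or in the lists that follow, so such swings cannot be set apart from those of all genes. The count of higher genes was 4 without shControl 1A or without shDYRK1A 1C.

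The NF-kB subunit genes were not called in either direction with the spike-in. RELA, which encodes the main activating subunit, had 3969 ± 342 normalized counts in shControl and 3616 ± 256 in shDYRK1A (SD, n = 3 each), or -0.13 on the log2 scale (adjusted p 0.383). The extremes of the 4 subunit genes above 10 CPM were NFKB2 (-0.24) and RELB (0.24), and their median was -0.17. By edgeR 0 of 4 passed, by DESeq2 also 0, and 0 had an unadjusted p below 0.05. Under TMM scaling all 4 were higher, with a median of 0.23. The fifth, REL, lay below 10 CPM and had a lower value in the wider fit, -0.46 (adjusted p 0.0877), or -0.10 under TMM scaling (adjusted p 0.706). In that fit 0 of 5 were called with the spike-in, and 3 of 5 were higher under TMM scaling. Without shControl 1C or without shDYRK1A 1A, 1 subunit gene above 10 CPM was lower.

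Among the other inhibitors, CYLD, which encodes a deubiquitinase that restrains the pathway, had the lowest value. Its normalized counts fell from 2409 ± 195 to 895 ± 121 (SD, n = 3 each), a log2 fold change of -1.43 (adjusted p 4.53e-19, edgeR), and under TMM scaling it remained lower, by -1.03. NFKBIB, which encodes IkBbeta, had the highest value above 10 CPM, 0.11 (adjusted p 0.501). Of 11 such genes above 10 CPM 5 were lower and 0 higher by edgeR, where 63.4% of all genes were lower, and DESeq2 called 0 higher. At an unadjusted p below 0.05 edgeR had 6 lower and 0 higher, and under TMM scaling 4 were lower and 5 higher. Below 10 CPM NFKBIZ, an inducible nuclear member of the IkB family, had 262, 258 and 236 normalized counts in shControl and 595, 365 and 505 in shDYRK1A. It rose by 0.96 (adjusted p 6.75e-07), as NFKBIA did, whereas TNIP3, an A20-binding protein, was lower (-0.77, adjusted p 0.0488). With TMM the value of TNIP3 was -0.38 (adjusted p 0.35).

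Of 25 kinases and adaptors from the receptors to IKK, 10 were lower and 0 higher by edgeR, where 63.4% of all genes were lower. DESeq2 called 0 higher, and 0 were higher at an unadjusted p below 0.05 by edgeR. Under TMM scaling 6 were lower and 10 higher. Without shControl 1C 19 were lower, and without shControl 1A or 1B 7 were. TRAF5 (-0.98), TAB2 (-0.85), MAP3K14 (-0.80), which encodes the kinase NIK of the noncanonical branch, and IRAK1 (-0.70) passed the test with a fold change past the threshold. Under TMM scaling these 4 were at -0.59, -0.45, -0.39 and -0.30, short of the threshold. TRAF5, at a mean of 12 CPM, passed the 10 CPM filter only through the shControl libraries. The same was true of RNF31, at 11.7 CPM, another of the 10 lower genes. In the wider fit TRAF5 was also lower by -0.98 (adjusted p 7.25e-08, edgeR) and RNF31 by -0.44 (adjusted p 0.0172, edgeR). IRAK2 was the highest at 0.25 (adjusted p 0.169). Of 6 receptor genes above 10 CPM 2 were lower and 0 higher by edgeR, and DESeq2 called 0 higher. At an unadjusted p below 0.05, 3 were lower and 0 higher, and under TMM scaling 0 were lower and 3 higher. Omissions gave 1 to 3 lower. TLR4, the receptor for lipopolysaccharide, was lower (-0.56, adjusted p 0.00101), and IL1RAP, the shared chain of the interleukin 1 receptor, had 0.25 (adjusted p 0.154). With TMM the value of TLR4 was -0.16 (adjusted p 0.0588). Below 10 CPM the chemokine scavenger ACKR3 (-1.21, adjusted p 2.06e-10) and the prostaglandin E2 receptor PTGER2 (-0.98, adjusted p 0.000392) were lower. With TMM their values were -0.82 and -0.61.

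The other cytokines and chemokines moved in both directions. CXCL12, a homeostatic chemokine, fell from 9257 ± 786 to 4260 ± 254 normalized counts (SD, n = 3 each; log2 fold change -1.12, adjusted p 1.77e-14), and CSF1, the growth factor of macrophages, was lower by -0.81 (adjusted p 1.46e-08). CXCL16 was higher by 0.70 (adjusted p 9.8e-05) and was past the fold threshold. Below 10 CPM CXCL10, an attractant of activated T cells, had 32.9, 19.3 and 26.3 normalized counts in shControl and 126, 88.0 and 107 in shDYRK1A, and rose by 2.03 on the log2 scale (adjusted p 4.81e-11). CCL5 (1.26, adjusted p 0.00311) and IL32 (0.74, adjusted p 0.0197) were higher as well. All 6 of these genes kept their direction under TMM scaling. CCL5, at a mean of 0.595 CPM, passed the 0.5 CPM filter only through the shDYRK1A libraries.

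Among 19 other target genes above 10 CPM 5 were lower and 2 higher, against 1 lower and 14 higher under TMM scaling. The lower count was 1 without shControl 1B or shDYRK1A 1C, 2 without shControl 1A, 3 without shDYRK1A 1B and 9 without shControl 1C. The higher count was 1 without shControl 1A, shDYRK1A 1A or shDYRK1A 1C. The complement gene C3 had 2016, 2169 and 1788 normalized counts in shControl and 5137, 4315 and 4547 in shDYRK1A and rose by 1.23 (adjusted p 6.48e-16). VCAM1, an adhesion molecule for leukocytes, was higher by 0.37 (adjusted p 0.0231), and KLF6 was lower by -0.82 (adjusted p 6.72e-07). With TMM their values were 0.77 and -0.42. Of 5 prostaglandin genes 2 were lower and 2 higher, against 1 and 3 under TMM scaling, and omissions gave 1 to 2 in either direction. PTGES3, a synthase of prostaglandin E2, was lower (-0.74, adjusted p 2.31e-07), while HPGD, which breaks prostaglandins down, was higher (0.88, adjusted p 1.79e-06). HPGD, at a mean of 11.2 CPM, passed the 10 CPM filter only through the shDYRK1A libraries. In the wider fit it was also higher by 0.88 (adjusted p 2.13e-06, edgeR). Under TMM scaling PTGES3 was at -0.33 and HPGD at 1.28. The rise of PTGS2 thus stood beside 2 lower and 2 higher genes of this list.

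Among 8 genes of interleukin 1 processing 3 were lower and 1 higher, against 1 and 4 under TMM scaling, and omissions gave 1 to 5 lower. CASP1 was the higher one (0.59, adjusted p 9.83e-05), and CAPN2, a calpain subunit, the lowest (-0.78, adjusted p 7.73e-08). Of 11 genes for AU-rich element decay and stability 8 were lower and 1 higher, with a median of -0.39. Of all genes above 10 CPM 63.4% were lower, with a median of -0.40, so this list was near the background. Under TMM scaling 3 were lower and 2 higher, with a median of 0.01. Omissions gave 3 to 9 lower. HNRNPD, which encodes the decay factor AUF1, was the lowest (-0.73, adjusted p 4.46e-07). ZC3H12A, the ribonuclease regnase 1 and itself an NF-kB target, was the highest (0.43, adjusted p 0.012), a call that was lost without shControl 1A or without shDYRK1A 1C. With TMM the value of HNRNPD was -0.33 and that of ZC3H12A 0.84.

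**Figure D5:**
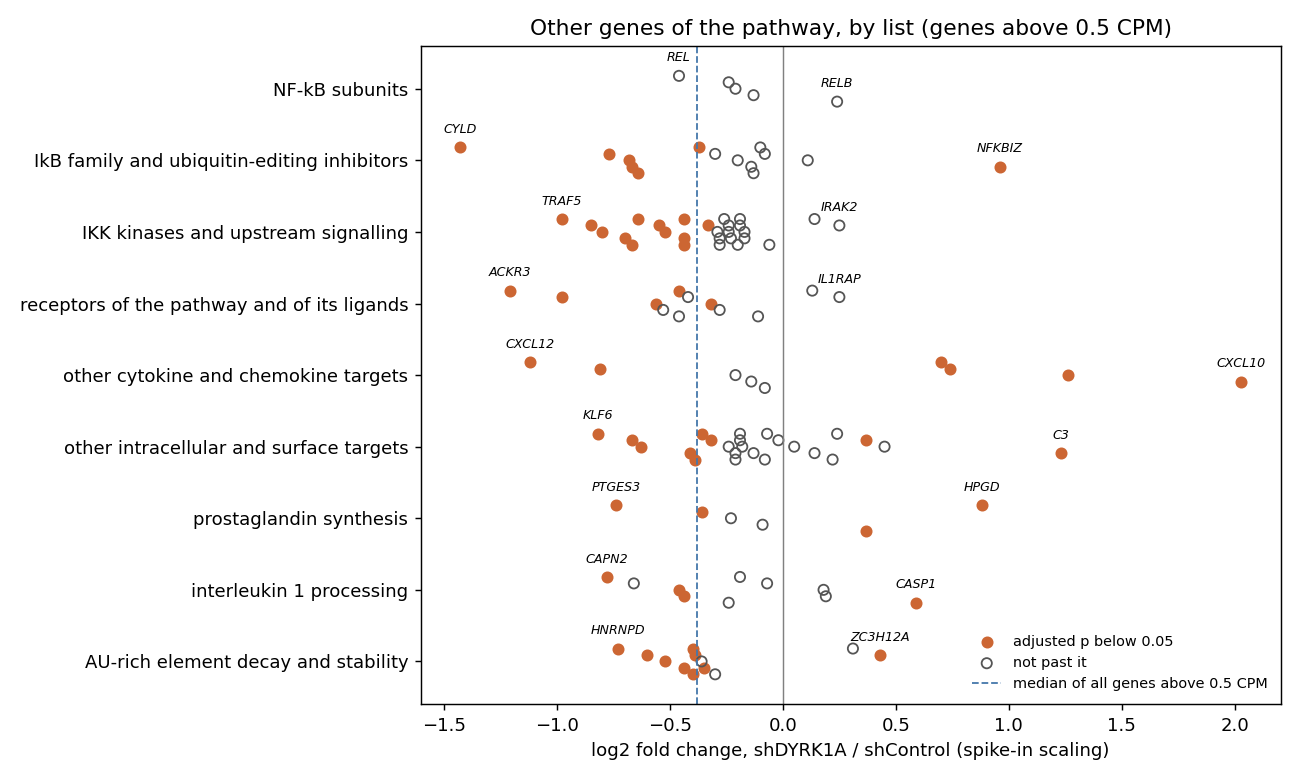
Log2 fold changes (x axis, spike-in scaling) of the other pathway genes above 0.5 CPM, by list. Filled points passed an adjusted p below 0.05, open points did not, and names stand at both ends of each list. The dashed line is the median of all genes, -0.38; CXCL10, CCL5, C3, NFKBIZ and HPGD lie far to its right and CYLD, ACKR3 and CXCL12 far to its left.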

How the data were processed

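Titles of the samples gave the groups and replicate letters. The authors sequenced stranded paired-end mRNA libraries and deposited raw read counts per human gene for each library. Their processing notes name STAR, DESeq2 and the builds hg38 and dm3. In a second table they deposited a normalized signal per gene, which equals the raw count divided by 1 constant per library, derived by the authors from the Drosophila spike-in. A further table with the authors' comparison (log2 fold changes, scores and p-values) was deposited and was not used. The 4 summary rows that name no gene held 18.9 to 25% of all reads and were left out.

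Size factors were recovered as raw count over normalized signal and used in edgeR 4.0.16 (robust quasi-likelihood F test, R 4.3.3), with Benjamini-Hochberg adjustment over all genes of a fit. Genes needed a mean normalized CPM above 10 (9697 genes), and members between 0.5 and 10 CPM were tested in a fit of 15582 genes. Calls used an adjusted p below 0.05, and the fold threshold was a log2 fold change past 0.7. Standard errors are the log2 fold change over the square root of F. Alternatives were TMM, median of ratios, DESeq2 1.42.0, other filters, the replicate letter as a block and leaving out each library. On simulated data for this comparison with 200 genes changed by a log2 of 1, 100% were recovered among 9697 genes and 88% among 15582 genes.

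The members and lists were chosen with earlier results of these data known. Named genes, besides the members and DYRK1A, were the lowest and highest of each list above 10 CPM, list genes past the adjusted p and the fold threshold, and the 3 genes most like CXCL8 and NFKBIA. Gene coordinates and exons are from GENCODE v29 (GRCh38) and equal those in the deposited table for the 8 members it holds. TNFAIP3 has an annotated antisense partner, AL357060.1, on the opposite strand of a stranded library, and no member shares exonic bases with a gene on its own strand. Promoters are from RefSeq (GRCh38.p14). Motifs were matched in Python 3.11.15.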

Additional observations from a re-analysis of the deposited data

How the results depend on the processing

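CCL2, PTGS2 and NFKBIA were higher at an adjusted p below 0.05 with TMM, median of ratios, DESeq2, both other filters, the fit of genes above 0.5 CPM, the replicate block and each omission of a library. Scaling over the human genes decided the calls of CXCL8 (0.75 under TMM and 0.75 under median of ratios) and TNFAIP3 (0.56 and 0.57) and raised the members called higher from 3 to 5 under both. With the fold threshold 1 member was called higher, and 4 when TMM was combined with it, a choice made after seeing the data. Without one library CXCL8 ranged from 0.25 to 0.57 and CXCL3 from -0.63 to -0.46, with 0 to 1 members called lower. The replicate block gave 1 member called lower, CXCL3 (-0.57, adjusted p 0.0395). The letters were not taken to pair the libraries, since the labels do not say that they do. The same-letter correlations of deviations from the group means were 0.15, 0.07 and 0.13, against -0.10 to -0.01 for different letters. Each library thus correlated best with its own letter, and whether the letters pair the libraries was not tested. The block moved no other call among the members at an adjusted p below 0.05. With the fold threshold it gave 2 members higher, since NFKBIA then passed that threshold.

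Over the pathway lists, TMM gave 18 genes lower and 43 higher and median of ratios 18 and 44, against 37 and 7, and omissions gave 22 to 56 lower and 4 to 7 higher. The median of all genes above 10 CPM moved with the omissions as well, between -0.48 and -0.34. Of 9 list medians 8 turned positive under TMM and median of ratios alike: 0.23 for the subunits, 0.11 for the inhibitors, 0.13 for upstream signalling, 0.21 for receptors, 0.32 for prostaglandin synthesis, 0.19 for interleukin 1 processing and 0.01 for AU-rich element decay, and 0.22 and 0.23 for the other targets. That of the other cytokines and chemokines stayed negative, at -0.10 against -0.51. These scalings set the median of all genes near 0 by construction. With 3 libraries a group and under 50 reads a library, IL1A and IL1B are measured with wide counting error, and a change of CXCL1 or CXCL2 was not detectable at this depth.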
